A study of Mus musculus with 12 samples.

Results

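Lupron, a drug that lowers testosterone, was given to mice carrying prostate tumours, and RNA from 3 of these tumours was set against RNA from 3 tumours of mice given a control IgG antibody. The 6 tumours were chosen by their sample titles from the 12 of the series. All tumours grew from PTE-82 cells, which carry the TMPRSS2-ERG fusion. In every group 100000 cells in 40 µl of PBS and Matrigel had been placed in the prostates of C57BL/6J mice, a strain with an intact immune system. The Lupron group received 0.6 mg of the drug per mouse on day 4, the IgG group received no Lupron, and tumours of all groups were collected on day 17 after perfusion with PBS. The 6 tumours outside this comparison received Lupron with an antibody to CSF1, the factor that macrophages need to survive (Lupron/anti-CSF1, 3 tumours) or that antibody without the drug (anti-CSF1, 3 tumours), with antibody on days 9 and 14. They entered the fit for its estimate of spread, and they hold a second comparison of Lupron that uses none of the 6 libraries. The labels used here do not say whether mice given Lupron also received control IgG, whether a tumour is 1 mouse, or how old the mice were. The labels number the tumours as separate samples, and p-values measure the spread between these samples. The PTE-82 line is 1 cell source, so the tumours differ as hosts and implants and not as independent cancers.

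Lupron (leuprolide) is an agonist of the receptor for gonadotropin-releasing hormone. Given continuously, it first stimulates and then silences the pituitary cells that make luteinizing hormone, and the testes then make little testosterone. In the prostate, testosterone and its product dihydrotestosterone switch on probasin, Tmprss2, Fkbp5 and other genes of luminal cells. In tumours with the fusion, the promoter region of TMPRSS2 drives an ETS factor, ERG. Loss of androgen shrinks the prostate and the seminal vesicles, and is known to alter the immune cells of the prostate.

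No gene passed the test between Lupron and IgG tumours at an adjusted p of 0.05 (edgeR's quasi-likelihood test, Benjamini-Hochberg adjustment), which is 0% of 15082 genes tested. The smallest adjusted p was 0.284, shared by many genes and held by Cav1 at the top of the ranking. At an unadjusted p under 0.05 stood 2478 genes, or 16.4%, of which 709 were higher with Lupron (4.7%) and 1769 lower (11.7%). All 3 Lupron tumours lay above all 3 IgG tumours for 1679 genes (11.1%) and below them for 1286 (8.53%). The median log2 fold change over all genes was −0.02. An exact permutation test of 3 tumours against 3 cannot give a p under 0.1, so the fit that shares its spread across genes was used. DESeq2, a second tool for counts, called 429 genes, 24 higher and 405 lower. No direction is therefore stated below as a change: levels are given as CPM, counts scaled to the size of the library, for each tumour in the order of replicates 1, 2 and 3, and fold changes as log2 of Lupron over IgG ± standard error. Where 2 fold changes of a gene stand together, the second leaves out IgG replicate 3, the library described next.

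The IgG group held 1 tumour that stood apart. IgG replicate 3 ranked first of 12 libraries for smooth muscle, skeletal muscle, fat, luminal, basal and prostate secretion genes, and last for proliferation, T cell, MHC class I and interferon response genes. The level of proliferation genes, as the mean of log2 (CPM + 1), was 6.50, 5.67 and 6.36 in Lupron tumours and 6.29, 6.25 and 3.03 in IgG tumours. With this library left out 15196 genes were tested, 0 (0%) passed, and the smallest adjusted p was 0.80, for Itgam. The count at an unadjusted p under 0.05 was then 801 (5.27%), with 321 higher (2.11%) and 480 lower (3.16%), and DESeq2 called 3 genes, all lower. Groups without overlap numbered 2012 genes above (13.2%) and 1620 below (10.7%), since 2 IgG tumours are easier to clear than 3. Genes at that p in both fits were 227 higher and 400 lower. Leaving out IgG replicate 1 instead, which keeps the 2 IgG tumours highest in those tissue genes, gave 653 called genes, 158 higher and 495 lower. Total counts per library ran from 22585189 to 27247268, RNA integrity numbers from 8.2 to 9.4, and seminal vesicle genes took 29.3% of the counts of Lupron replicate 2. That library also had a ribosomal RNA area ratio of 0.7, where the other Lupron and IgG libraries had 1.4 to 1.9.

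**Figure D1:**
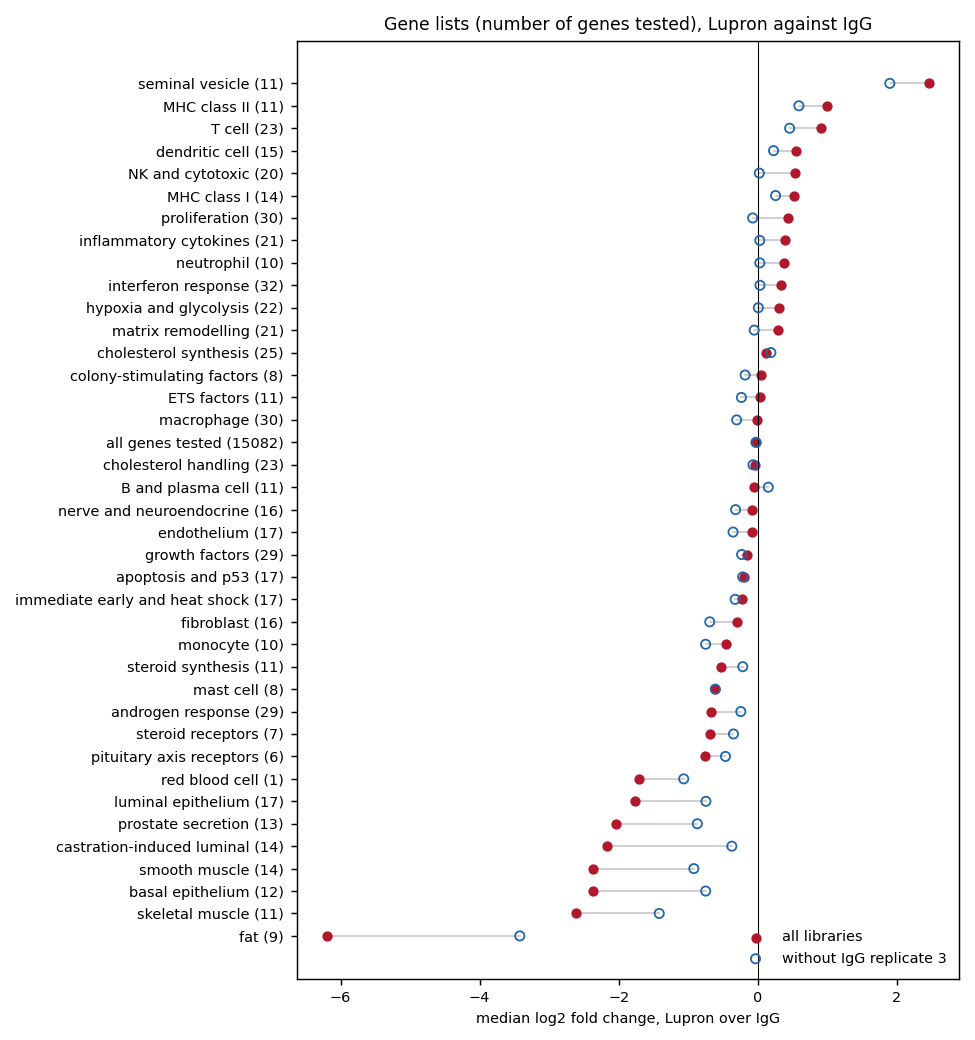
Median log2 fold change (x axis, Lupron over IgG) of 38 gene lists and of all genes tested, with filled red points for all libraries and open blue points for the fit without IgG replicate 3. The median of fat genes lies at −6.20 and that of smooth muscle genes at −2.37 with all libraries and at −3.42 and −0.92 without that library, while MHC class II genes stay to the right of 0 at 1.00 and 0.59.

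In each direction the 8 genes with the smallest p were taken among those with a mean of at least 1 CPM in either group and no overlap between groups, so that lack of overlap in them is not a result. Sfrp1 and Cav1, among the 8 lower genes with the smallest p, and Igf1, the growth factor gene with the smallest p, were lower in both fits. DESeq2 called Igf1 and the 16 genes chosen by p in the fit with all libraries, 8 lower and 8 higher. Sfrp1 (chr8:23411383-23449632, mm10) encodes a secreted antagonist of Wnt signals made by stromal cells. Its level was 4.29, 9.12 and 8.55 CPM in Lupron tumours and 21.6, 50.3 and 40.6 CPM in IgG tumours. Every Lupron tumour lay well under every IgG tumour, and the lowest IgG value belonged to replicate 1. The fold change was −2.36 ± 0.50 (adjusted p = 0.284) and −2.30 ± 0.52 without IgG replicate 3. Cav1 (chr6:17306335-17341328), the coat protein of the membrane pits called caveolae, had 96.7, 69.9 and 80.2 CPM in Lupron tumours and 120.5, 280.3 and 273 CPM in IgG tumours. IgG replicates 2 and 3 stood far above the rest, and IgG replicate 1 was nearest to the Lupron tumours. Its fold change was −1.45 ± 0.30, and −1.28 ± 0.31 without IgG replicate 3.

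Igf1 (chr10:87858265-87937047), an insulin-like growth factor that prostate stroma supplies to epithelium, had 14.8, 18.0 and 13.4 CPM in Lupron tumours and 27.7, 71.8 and 114 CPM in IgG tumours. The Lupron values were close together and the IgG values spread over a wide range above them. The fold change was −2.21 ± 0.52 with all libraries and −1.70 ± 0.48 without IgG replicate 3. Its receptor gene Igf1r had 45.2, 59.0 and 43.5 CPM in Lupron tumours and 61.9, 76.6 and 159.7 CPM in IgG tumours, again without overlap, and a fold change of −1.01 ± 0.33, or −0.49 ± 0.23 without that library. Of the 6 tested genes on the list of pituitary axis receptors and growth hormone effectors, 6 had negative values, with a median of −0.77, and −0.46 without IgG replicate 3, against 51.2% negative over all genes. Gnrhr, the receptor that Lupron binds, was on this list with 0 counts in the Lupron tumours and 1 in the IgG tumours, and was not tested.

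The other genes lower with Lupron by the smallest p were Fcna, Larp1b, Espn, Muc19, Pon1 and Cdkl1. Fcna, a ficolin that tissue macrophages make, had 3.92, 4.93 and 4.76 CPM in Lupron tumours and 6.43, 24.4 and 32.4 CPM in IgG tumours (−2.22 ± 0.48). Larp1b, an RNA-binding protein gene, had 17.0, 18.7 and 23.3 CPM in Lupron tumours and 28.6, 52.6 and 84.5 CPM in IgG tumours (−1.49 ± 0.33). For both, each IgG value lay above each Lupron value, as the choice of genes required, in the order of IgG replicates 3, 2 and 1. Pon1, a lipoprotein-bound esterase, had no counts in the 3 Lupron tumours, which allows up to 0.0396 CPM over the group by counting error, and 0.114, 2.46 and 11.7 CPM in IgG tumours, at least 120.6-fold lower with Lupron, or at least 32.55-fold against the other 2 IgG tumours without IgG replicate 3. The epithelial genes Espn (an actin bundler) and Muc19 (a gel-forming mucin) and the kinase gene Cdkl1 were led by IgG replicate 3, with 0.845, 0.746 and 0.347 CPM of Espn in Lupron tumours and 2.47, 4.84 and 33.4 CPM in IgG tumours.

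Without IgG replicate 3, the lower genes with the smallest p were Itgam, Ddah1, Sfrp1, Jmy, Rhox5, Pfkfb3, Cav1 and Klf5. Itgam (chr7:128062640-128118491), which encodes the CD11b integrin of myeloid cells, led that fit with −1.57 ± 0.28 (adjusted p = 0.8). Its level was 25.3, 21.3 and 21.0 CPM in Lupron tumours and 46.2, 87.3 and 25.5 CPM in IgG tumours, so the left-out tumour was the IgG tumour nearest to the Lupron group. Pfkfb3, a switch of glycolysis, had 62.6, 45.4 and 48.4 CPM in Lupron tumours and 86.5, 259 and 60.8 CPM in IgG tumours (−1.73 ± 0.41), and IgG replicate 2 alone was far above the others. Ddah1, which clears an inhibitor of nitric oxide synthesis, had 7.64, 3.50 and 6.46 CPM in Lupron tumours and 13.9, 24.1 and 1.07 CPM in IgG tumours (−1.69 ± 0.35); here IgG replicate 3 was the lowest of the 6. Jmy, a p53 cofactor that also nucleates actin, was at −0.67 ± 0.15, and Klf5, an epithelial transcription factor, at −0.91 ± 0.22. Klf5 was at −3.55 ± 0.93 with all libraries, since its level was 12.7, 12.6 and 13.5 CPM in Lupron tumours and 25.3, 23.3 and 405 CPM in IgG tumours. The homeobox gene Rhox5 had 0.812, 2.47 and 0.556 CPM in Lupron tumours and 2.51, 103 and 0.0356 CPM in IgG tumours, and its value rests on IgG replicate 2. DESeq2 without IgG replicate 3 called Itgam (−1.57, adjusted p = 0.0185), the matrix gene Tnn (−4.61, 0.00835) and the interleukin 33 receptor gene Il1rl1 (−6.17, 0.0187), and these 3 were not among its 429 with all libraries.

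The 8 genes higher with Lupron by the smallest p were Serpinb6b, Insl6, Tmem18, Timm21, Znrd1, Tmem5, Dand5 and Sis. Serpinb6b (chr13:32956811-32979067), an intracellular inhibitor of serine proteases from a family of close copies that makes its counts uncertain, had 28.2, 37.7 and 29.7 CPM in Lupron tumours and 18.8, 14.7 and 9.43 CPM in IgG tumours. All Lupron values lay above all IgG values, as the choice of genes required, with 1.15 ± 0.26 in the full fit and 0.93 ± 0.22 without IgG replicate 3. Insl6, an insulin-like peptide gene, had 23.6, 32.5 and 23.8 CPM in Lupron tumours and 10.7, 12.2 and 6.66 CPM in IgG tumours (1.43 ± 0.35). Tmem18, a nuclear membrane protein gene, had 23.9, 27.9 and 24.5 CPM in Lupron tumours and 15.8, 13.3 and 12.6 CPM in IgG tumours (0.88 ± 0.21). The IgG tumours were close together for Tmem18, while for Insl6 IgG replicate 3 lay below the others. Without IgG replicate 3 the values were 1.22 ± 0.35 for Insl6 and 0.81 ± 0.23 for Tmem18. Timm21 (mitochondrial import, 1.02 ± 0.25), Znrd1 (an RNA polymerase I subunit, 0.68 ± 0.18), Tmem5 (a sugar transferase for dystroglycan, 0.76 ± 0.20) and Dand5 (an antagonist of Nodal, 0.92 ± 0.25) completed the group. Sis, the gut enzyme sucrase-isomaltase, was near the detection limit, at 0.304, 1.20 and 2.12 CPM in Lupron tumours and 0.0761, 0 and 0 CPM in IgG tumours.

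Without IgG replicate 3 the higher genes with the smallest p were Casp1, Serpinb6b, Bambi, Mis18a, Tspan6, Hist1h4j, Spc24 and Csprs. Casp1 (chr9:5298517-5307281) encodes the protease that matures interleukins 1β and 18 in inflammasomes. It had 98.2, 93.0 and 111 CPM in Lupron tumours and 46.8, 38.8 and 6.52 CPM in IgG tumours. The highest IgG tumour was below each Lupron tumour, as the choice of genes required, and IgG replicate 3 was by far the lowest. The fold change was 1.71 ± 0.54, and 1.23 ± 0.28 without that library. Bambi, a decoy receptor for TGF-β ligands, had 33.1, 37.2 and 37.5 CPM in Lupron tumours and 22.8, 12.5 and 25.5 CPM in IgG tumours (0.83 ± 0.25, and 1.02 ± 0.25 without IgG replicate 3). For Bambi, IgG replicate 3 was the IgG tumour nearest to the Lupron group. Mis18a and Spc24, genes of centromeres and kinetochores, were at 0.85 ± 0.23 and 0.69 ± 0.19 in the smaller fit. Tspan6, a tetraspanin gene, was at 0.97 ± 0.26 there and at −0.18 ± 0.52 with all libraries, since IgG replicate 3 held its highest level. The histone gene Hist1h4j (0.83 ± 0.23) and Csprs (2.64 ± 0.74) have near-identical copies, and their counts are uncertain.

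**Figure D2:**
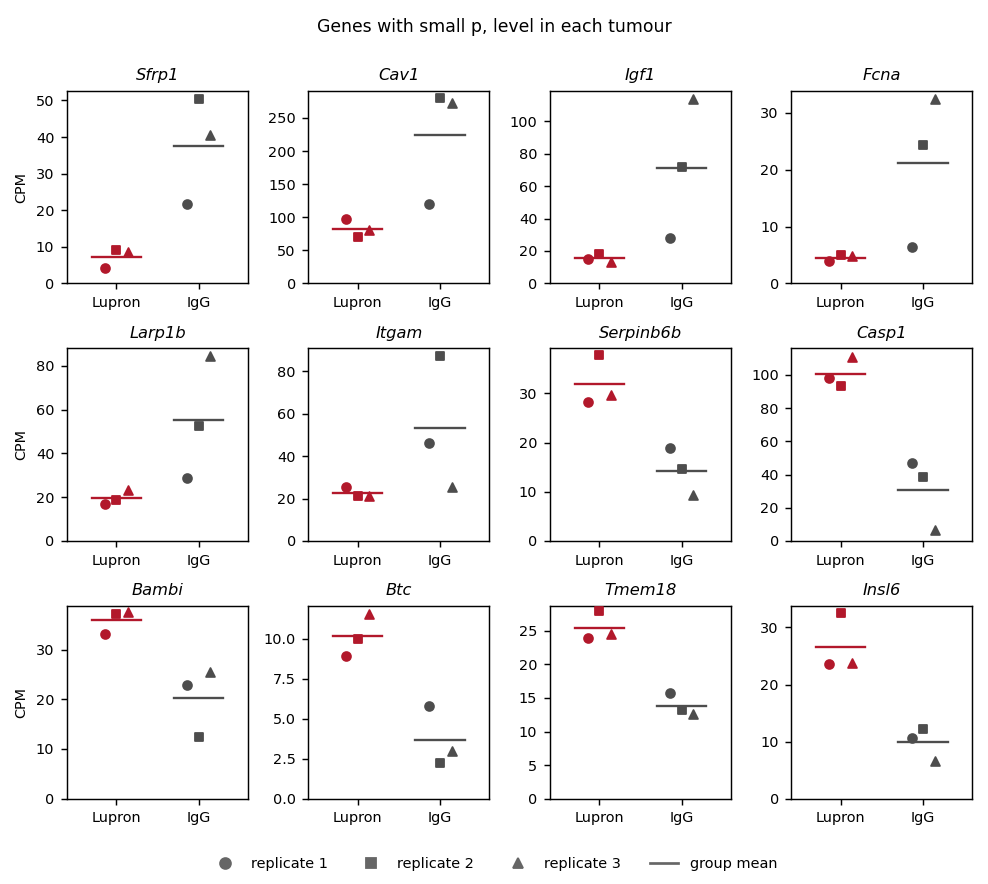
Level in CPM (y axis, from 0) of 12 genes in each Lupron (red) and IgG (grey) tumour, with marker shapes for replicates and lines for group means of 3 tumours. Lupron tumours of Sfrp1 reach 9.12 CPM where the lowest IgG tumour has 21.6 CPM, and Lupron tumours of Casp1 start at 93.0 CPM where the highest IgG tumour has 46.8 CPM. Both genes were chosen among those without overlap.

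Growth factor genes showed no common direction. Of 29 tested members 13 were positive and 16 negative, the median was −0.15, and 4 were higher and 6 lower at an unadjusted p under 0.05 (background 4.7% and 11.7%). The median was −0.23 without IgG replicate 3 and 0.09 without IgG replicate 1. Btc, the EGF receptor ligand betacellulin, had 8.93, 9.98 and 11.6 CPM in Lupron tumours and 5.78, 2.25 and 2.95 CPM in IgG tumours. Its groups did not overlap, and the fold change was 1.47 ± 0.41, or 1.33 ± 0.45 without IgG replicate 3. Fgf7, a stromal growth factor for epithelium, had 3.79, 7.00 and 2.36 CPM in Lupron tumours and 3.16, 88.1 and 22.4 CPM in IgG tumours (−3.12 ± 0.89). IgG replicate 1 lay among the Lupron values for Fgf7, and the other IgG tumours lay above all of them, and the value was −1.54 without IgG replicate 2 and −3.39 without IgG replicate 3.

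Most genes tied to androgen action had negative values, and they varied widely within both groups. Tmprss2, the androgen-driven protease gene that lends its promoter to the fusion, had 3.18, 37.0 and 23.1 CPM in Lupron tumours and 16.4, 69.7 and 239 CPM in IgG tumours, with overlap (−2.37 ± 0.94, and −1.03 ± 0.83 without IgG replicate 3).

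Probasin, Pbsn, a secretory protein of rodent prostate and a standard androgen target, had 77.4, 9212 and 4821 CPM in Lupron tumours and 1351, 10225 and 1538 CPM in IgG tumours. The Lupron and IgG values were interleaved, at 0.11 ± 1.47, and the sign changed to −0.30 without IgG replicate 3, to −0.32 without IgG replicate 1 and to −0.87 without Lupron replicate 2. Fkbp5, a target of androgens and glucocorticoids, had 179.7, 77.8 and 132 CPM in Lupron tumours and 195, 100.1 and 153 CPM in IgG tumours. Its groups overlapped throughout (−0.20 ± 0.41), and the sign turned to 0.03 without Lupron replicate 2 and to 0.03 without IgG replicate 1. In both groups replicate 2 had the lowest Fkbp5 level.

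Of 29 tested androgen response genes 8 were positive and 21 negative, with a median of −0.68. At an unadjusted p under 0.05, 7 were lower and 0 higher, against 11.7% and 4.7% of all genes. The median without IgG replicate 3 was −0.24, with 24 of 29 negative and 1 at that p. The members with the smallest p were Steap4, a metal reductase (−3.49 ± 0.96, and −1.99 ± 0.75 without that library), Msmb, Slc45a3 and Mme. Steap4 had 2.98, 4.47 and 1.77 CPM in Lupron tumours and 6.05, 18.3 and 78.8 CPM in IgG tumours, without overlap. Msmb, a seminal plasma protein gene, had 0.744, 0.631 and 0.208 CPM in Lupron tumours and 1.98, 3.17 and 1207 CPM in IgG tumours, which puts nearly all of its counts in IgG replicate 3. The peptidase gene Mme (−3.65 ± 1.32 and −1.32 ± 1.10) and the transporter gene Slc45a3 (−2.29 ± 0.78 and −0.98 ± 0.62) overlapped between groups. Smooth muscle genes had levels (mean of log2 (CPM + 1)) of 5.07, 7.02 and 6.11 in Lupron tumours and 5.78, 7.77 and 9.57 in IgG tumours, and their part in the androgen values was not tested. In bulk tumour RNA, fewer cells of a type and less RNA per cell cannot be told apart.

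Genes that castration is known to raise in luminal cells of the normal mouse prostate mostly had negative values. Of 14, 11 were negative with all libraries and 13 without IgG replicate 3, with medians of −2.17 and −0.37, and all 3 Lupron tumours lay below all IgG tumours for 5 in each fit, against 8.53% and 10.7% of all genes. Psca, a surface antigen of prostate epithelium, had 0.0338, 0.115 and 0.347 CPM in Lupron tumours and 2.13, 6.22 and 697 CPM in IgG tumours, so that IgG replicate 3 stood alone but the other IgG tumours were also above each Lupron tumour. The keratin gene Krt4 had 0.169, 0.229 and 0.278 CPM in Lupron tumours and 0.913, 2.05 and 62.3 CPM in IgG tumours, also without overlap, while Krt7 overlapped, at −6.05 ± 2.12, and −0.20 ± 1.30 without IgG replicate 3.

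**Figure D3:**
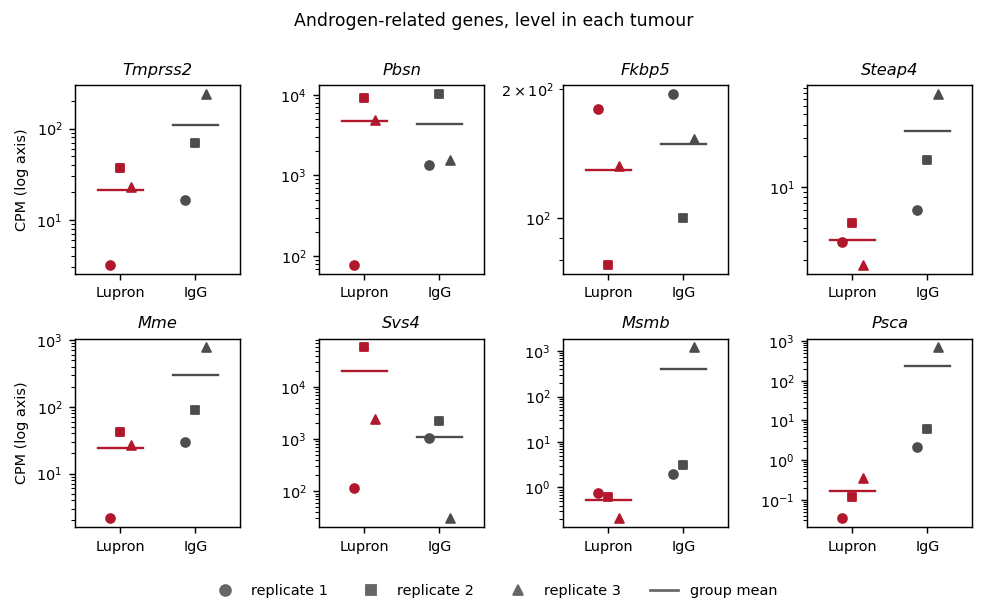
Level in CPM (y axis, log scale) of 8 androgen-related genes in each Lupron (red) and IgG (grey) tumour, with marker shapes for replicates and lines for group means of 3 tumours. Steap4 separates the groups at 4.47 and 6.05 CPM, Fkbp5 and Pbsn do not separate them, and IgG replicate 3 alone carries Msmb at 1207 CPM.

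Most steroid hormone receptor genes had negative values. Nr3c1, the glucocorticoid receptor gene, had 67.2, 64.2 and 77.4 CPM in Lupron tumours and 83.1, 94.2 and 96.3 CPM in IgG tumours, without overlap and with little spread (−0.39 ± 0.18, and −0.35 ± 0.20 without IgG replicate 3). Nr3c2, the mineralocorticoid receptor gene, was at −2.34 ± 0.79 and −1.30 ± 0.70 with overlap, and the oestrogen receptor gene Esr2 at −1.93 ± 1.64 and −0.13 ± 1.77 from very low levels. Pgr, the progesterone receptor gene, had 1.76, 1.66 and 0.243 CPM in Lupron tumours and 3.01, 1.42 and 1.46 CPM in IgG tumours (−0.69 ± 0.69). Of 7 receptor genes 5 were negative, with a median of −0.69, and −0.35 without IgG replicate 3. Among 11 tested genes of steroid synthesis 9 were negative, with a median of −0.54, and −0.22 without IgG replicate 3, where 7 were negative. Star, which carries cholesterol into mitochondria for steroid synthesis, had 0.473, 0.860 and 0.486 CPM in Lupron tumours and 1.83, 2.34 and 8.62 CPM in IgG tumours (−2.82 ± 0.74 and −1.78 ± 0.68). Srd5a2, a reductase that makes dihydrotestosterone, had 0.169, 0.229 and 0 CPM in Lupron tumours and 0.837, 1.34 and 6.87 CPM in IgG tumours (−4.51 ± 1.37 and −3.04 ± 1.34). Both genes were low in the Lupron and IgG tumours, and their groups did not overlap. Srd5a1, its partner enzyme, was at −2.15 ± 0.92 and turned to 0.54 without IgG replicate 3.

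ETS factor genes showed no common direction. Erg, whose row in the table is the mouse gene and so need not count the fusion transcript, had 17.2, 10.7 and 16.1 CPM in Lupron tumours and 16.4, 11.7 and 8.01 CPM in IgG tumours. The groups overlapped, with 0.29 ± 0.29, and 0.07 ± 0.27 without IgG replicate 3. Of 11 ETS factor genes 6 were positive, with a median of 0.03, −0.24 without IgG replicate 3 and −0.11 without Lupron replicate 1, with −0.02 without Lupron replicate 3 and −0.0017 without IgG replicate 1. The epithelial members Elf3 (−2.58 ± 1.07 and −0.80 ± 0.88), Ehf (−2.19 ± 0.98) and Spdef (−2.17 ± 1.14 and −1.05 ± 1.11) had the smallest p, overlapped between groups, and had their highest level in IgG replicate 3.

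Genes of antigen presentation stood higher with Lupron in both fits. MHC class II molecules show peptides to helper T cells on dendritic cells, macrophages and B cells, and Ciita drives their genes through promoter elements called the X and Y boxes. All 11 class II genes were positive, with a median of 1.00, and 6 had every Lupron tumour above every IgG tumour, against 11.1% of all genes. All 11 were still positive without IgG replicate 3, with a median of 0.59, and 6 had no overlap, against 13.2%. At an unadjusted p under 0.05 stood 3 with all libraries and 0 without that library, where 4.7% and 2.11% of all genes were higher at that p. The promoters of 3 of the 4 members with the smallest p are shown because their genes stood higher together; they are RefSeq sequences on GRCm38.p6, 5′ to 3′ in the direction of the gene, covering 250 bases before its start. Capitals mark the X box core AACNGATG and the Y box core GATTGG, searched on both strands (CCAATC is the Y core on the other strand), which do not overlap each other.
H2-Aa (chr17:34287824-34288073, minus strand): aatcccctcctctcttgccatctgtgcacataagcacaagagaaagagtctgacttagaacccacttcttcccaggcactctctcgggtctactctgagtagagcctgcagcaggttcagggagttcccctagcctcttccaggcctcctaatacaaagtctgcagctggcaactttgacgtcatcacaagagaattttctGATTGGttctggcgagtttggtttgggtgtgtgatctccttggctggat
H2-Eb1 (chr17:34305617-34305866, plus strand): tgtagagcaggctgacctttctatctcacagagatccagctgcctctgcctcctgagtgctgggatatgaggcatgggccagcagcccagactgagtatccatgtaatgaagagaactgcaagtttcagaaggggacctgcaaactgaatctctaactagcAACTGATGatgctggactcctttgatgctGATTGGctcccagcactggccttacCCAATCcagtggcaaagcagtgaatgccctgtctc
H2-DMb1 (chr17:34152941-34153190, plus strand): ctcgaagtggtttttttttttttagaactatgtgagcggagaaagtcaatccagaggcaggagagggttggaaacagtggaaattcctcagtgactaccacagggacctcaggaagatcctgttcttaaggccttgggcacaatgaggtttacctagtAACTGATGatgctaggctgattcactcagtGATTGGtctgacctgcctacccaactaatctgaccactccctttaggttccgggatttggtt

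The X core begins 89 bases before the start of H2-Eb1 and 92 before that of H2-DMb1, each followed by a Y core at 60 and 62 bases before the start. H2-Aa holds a Y core 49 bases before its start and no match to the X core letters in this window. Of 32851 promoters of this length, 1.98% hold the X core, 14.6% the Y core and 0.25% both. The promoter set held no entry for H2-Ab1, so its promoter was not searched. These matches describe the letters and not the binding of a factor.

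H2-Ab1 (chr17:34263227-34269418), the beta chain of the I-A molecule, had 509.7, 567 and 518 CPM in Lupron tumours and 309.9, 339.9 and 111 CPM in IgG tumours. The Lupron tumours were tightly grouped, and each IgG tumour was lower, replicate 3 most of all. The fold change was 1.07 ± 0.44 (adjusted p = 0.288), and 0.71 ± 0.37 without IgG replicate 3. The alpha chain gene H2-Aa had 356, 389 and 356 CPM in Lupron tumours and 218, 207 and 88.0 CPM in IgG tumours (1.10 ± 0.44, and 0.79 ± 0.41 without that library). H2-Eb1, the beta chain of I-E, had 348, 315 and 331 CPM in Lupron tumours and 207, 216 and 74.2 CPM in IgG tumours (1.00 ± 0.50). H2-DMb1, part of the peptide-loading chaperone, had 50.3, 45.4 and 36.4 CPM in Lupron tumours and 26.9, 32.8 and 12.8 CPM in IgG tumours (0.87 ± 0.37). The same order held in all 4: Lupron tumours on top, IgG replicates 1 and 2 near each other below them, and IgG replicate 3 at the bottom.

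Class I genes, which present peptides to cytotoxic T cells, followed with smaller values. Of 14 tested 13 were positive, with a median of 0.51, and 5 had every Lupron tumour above every IgG tumour, against 11.1% of all genes. In the smaller fit 10 were positive, with a median of 0.26, and again 5 had no overlap, against 13.2%. Psmb8, a subunit of the immunoproteasome that cuts peptides for class I, had 290.0, 317 and 291 CPM in Lupron tumours and 198, 184 and 39.7 CPM in IgG tumours (1.09 ± 0.44, and 0.65 ± 0.20 without that library). Its partner Psmb9, from the same gene cluster, had 40.4, 47.5 and 42.5 CPM in Lupron tumours and 25.8, 27.5 and 8.22 CPM in IgG tumours (1.08 ± 0.37, and 0.70 ± 0.22). In both, IgG replicate 3 was at a fraction of the other IgG tumours, which themselves lay below each Lupron tumour. H2-M3, a class I molecule for bacterial peptides (1.16 ± 0.49), and Nlrc5, the class I activator (0.86 ± 0.34), also had no overlap.

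T cell genes were mostly higher too. Of 23 members 20 were positive, with a median of 0.91, and 7 had every Lupron tumour above every IgG tumour, against 11.1% of all genes. Without IgG replicate 3, 19 were positive, with a median of 0.46, and 7 had no overlap, against 13.2%. Cd3g, a chain of the T cell receptor complex, had 7.44, 18.4 and 11.5 CPM in Lupron tumours and 6.28, 4.80 and 0.997 CPM in IgG tumours (1.63 ± 0.67, and 1.16 ± 0.56 without that library). Lupron replicate 1 lay only just above IgG replicate 1, and Lupron replicate 2 was the highest. Cd4, the helper T cell coreceptor, had 14.2, 13.8 and 12.1 CPM in Lupron tumours and 8.18, 11.1 and 3.67 CPM in IgG tumours (0.80 ± 0.38). Havcr2, the checkpoint receptor TIM-3, which myeloid cells also carry, was at 1.09 ± 0.67, and Zap70, a kinase of the receptor, at 1.18 ± 0.61. NK and cytotoxic genes had a median of 0.54 with 15 of 20 positive, and of 0.02 with 11 of 20 without IgG replicate 3. Klrd1, an NK receptor chain, had 11.8, 51.5 and 21.99 CPM in Lupron tumours and 10.1, 12.4 and 1.89 CPM in IgG tumours (1.81 ± 0.74), with Lupron replicate 2 far above the rest and 1.03 without it.

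Interferon response genes gave a median of 0.34 with 28 of 32 positive, and of 0.03 with 19 of 32 without IgG replicate 3. Iigp1, a GTPase that interferon induces, had 278, 262 and 381 CPM in Lupron tumours and 182, 236 and 95.6 CPM in IgG tumours, without overlap (0.84 ± 0.33). Cd274, the checkpoint ligand PD-L1, had 28.1, 32.4 and 34.6 CPM in Lupron tumours and 18.9, 27.5 and 10.0 CPM in IgG tumours, also without overlap (0.75 ± 0.31, and 0.45 ± 0.22 without IgG replicate 3). The T cell attractant Cxcl9 (1.21 ± 0.67) and the antiviral gene Oas1a (0.82 ± 0.45) had no overlap either. The inflammasome product Il1b had 37.0, 57.4 and 43.8 CPM in Lupron tumours and 23.4, 24.5 and 0.605 CPM in IgG tumours (1.51 ± 0.84, and 0.94 ± 0.32 without IgG replicate 3). Its partner Il18 was at 0.62 ± 0.31 with overlap. Inflammatory cytokine genes had a median of 0.40 with 14 of 21 positive, and of 0.03 without IgG replicate 3. Ptgs2, the inducible enzyme of prostaglandin synthesis, went the other way, with 130.2, 51.9 and 54.3 CPM in Lupron tumours and 156, 437 and 1486 CPM in IgG tumours (−3.14 ± 0.88, and −1.91 ± 0.74 without that library). Ccl2, the monocyte attractant, was at −1.12 ± 0.87 and turned to 0.78 without IgG replicate 2, which held its highest level.

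**Figure D4:**
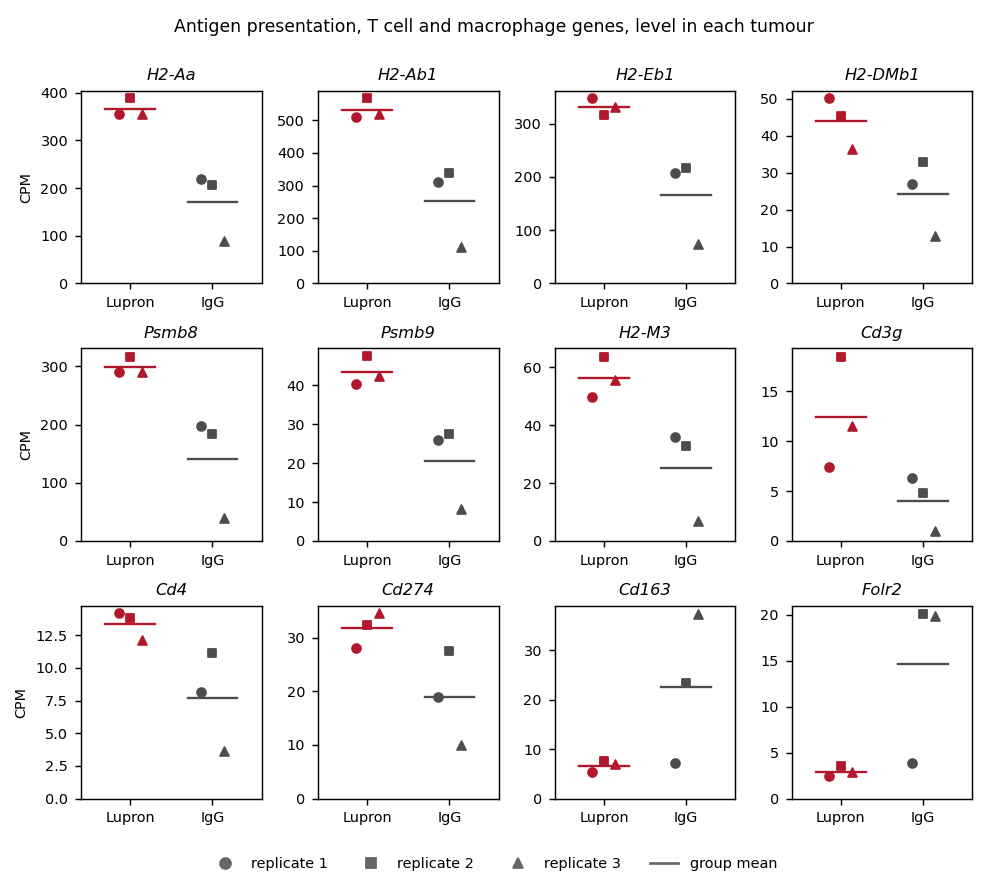
Level in CPM (y axis, from 0) of 12 genes of antigen presentation, T cells and macrophages in each Lupron (red) and IgG (grey) tumour, with marker shapes for replicates and lines for group means of 3 tumours. All Lupron tumours lie above all IgG tumours for H2-Ab1, from 509.7 CPM against at most 339.9 CPM, and IgG replicate 3 is the lowest tumour in every panel but those of Cd163 and Folr2.

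Macrophage genes showed no common direction. Of 30 members 15 were positive and 15 negative, with a median of −0.02, and without IgG replicate 3 10 were positive, with a median of −0.30, while without IgG replicate 2 the median was 0.19. Csf1r, the receptor that keeps macrophages alive, had 139, 80.5 and 106 CPM in Lupron tumours and 113, 148 and 51.9 CPM in IgG tumours. The groups overlapped (0.06 ± 0.41), and the sign turned to −0.27 without IgG replicate 3 and to −0.17 without Lupron replicate 1. Its ligand gene Csf1 had 98.6, 48.6 and 60.8 CPM in Lupron tumours and 72.8, 109 and 33.6 CPM in IgG tumours (−0.05 ± 0.47), with values of 0.39, 0.11 and 0.03 without IgG replicate 2, Lupron replicate 2 and Lupron replicate 3. The 8 colony-stimulating factor and receptor genes had a median of 0.04, −0.18 without IgG replicate 3 and −0.06 without Lupron replicate 1. Among them Csf2 (2.56 ± 1.38, with 1.98 without IgG replicate 3 and 6.81 without IgG replicate 1) and Csf3 (−1.68 ± 1.26 and −0.95 ± 1.41) were under 2 CPM in all 6 tumours, and Csf2rb, a shared receptor chain, was at 0.49 ± 0.38. Csf2 had 0.266, 0 and 0 CPM in IgG tumours, so without IgG replicate 1 its IgG group had no counts and the size of 6.81 is uncertain.

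Within the macrophage list, Cd163, Gpnmb, Itgam, Folr2 and Vsig4 were lower and 0 were higher at an unadjusted p under 0.05 (Vsig4, of resident macrophages, was named after its values were seen). These 5 of 30 stand against 11.7% lower and 4.7% higher of all genes, and without IgG replicate 3 7 were lower, against 3.16%. Folr2, a folate receptor of resident macrophages, had 2.40, 3.50 and 2.92 CPM in Lupron tumours and 3.88, 20.04 and 19.8 CPM in IgG tumours (−2.31 ± 0.73, and −2.02 ± 0.76 without IgG replicate 3). Cd163, the haemoglobin scavenger receptor, had 5.31, 7.51 and 7.05 CPM in Lupron tumours and 7.11, 23.3 and 37.3 CPM in IgG tumours (−1.77 ± 0.47, and −1.20 ± 0.42). For both, IgG replicate 1 was close to the Lupron tumours, and IgG replicates 2 and 3 were several times higher. Gpnmb, a lysosomal glycoprotein, was at −2.38 ± 0.69 and −0.98 ± 0.42, with most of its excess in IgG replicate 3. The smooth muscle and fat levels were also highest in IgG replicates 2 and 3, and their part in these values was not tested.

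Monocyte genes had a median of −0.46 with 7 of 10 negative, and of −0.75 with 9 of 10 negative without IgG replicate 3. F13a1, a clotting factor subunit of monocytes and macrophages, had 15.5, 11.2 and 6.98 CPM in Lupron tumours and 14.9, 52.2 and 68.1 CPM in IgG tumours (−2.01 ± 0.49, and −1.58 ± 0.46 without that library). Nr4a1, a nuclear receptor of patrolling monocytes that is also an immediate early gene, had 6.39, 8.60 and 7.19 CPM in Lupron tumours and 10.7, 17.9 and 30.5 CPM in IgG tumours, without overlap (−1.41 ± 0.35). Chi3l3, a chitinase-like gene of activated macrophages and monocytes, was at −1.62 ± 1.05, with its lowest IgG value in replicate 3. Dendritic cell genes leaned higher, with a median of 0.54 and 12 of 15 positive, and of 0.23 and 11 of 15 without IgG replicate 3. Zbtb46, a transcription factor of conventional dendritic cells, had 2.74, 6.60 and 3.61 CPM in Lupron tumours and 2.32, 2.59 and 2.46 CPM in IgG tumours, without overlap (0.81 ± 0.45), and Irf8 was at 0.43 ± 0.22. Cd209a, a lectin of another dendritic subset, was at −1.68 ± 1.12. Neutrophil genes had a median of 0.38 (0.03 without IgG replicate 3), mast cell genes of −0.61 in both fits, and B and plasma cell genes of −0.05 (0.15). The members with the smallest p in the neutrophil list were Mmp9, a gelatinase (1.53 ± 0.81 and 0.99 ± 0.53), and Il1r2, a decoy receptor of interleukin 1 (0.99 ± 0.53 and 0.60 ± 0.45), which overlapped between the groups. Ltf, the antimicrobial protein lactoferrin, came after them and stood the other way without overlap, with 0.541, 0.975 and 0.208 CPM in Lupron tumours and 3.23, 1.54 and 2.99 CPM in IgG tumours (−2.19 ± 1.39). The smallest p in the mast cell list was that of the protease gene Cma1 (−1.80 ± 0.88), and in the B cell list Fcer2a, the IgE receptor CD23 (−2.23 ± 1.25 and −1.62 ± 1.43), and then Ms4a1, the CD20 gene (1.97 ± 1.33 and 2.70 ± 1.53, with 0.50 without Lupron replicate 2). Fcer2a was near the detection limit, with 6 counts over the Lupron tumours and 29 over the IgG tumours, and its groups overlapped.

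Most genes that make cholesterol had small positive values, and genes that handle it showed no common direction. Cells build cholesterol or take it up from lipoproteins, and macrophages carry it on Apoe and export it through Abca1. Of 25 synthesis genes 17 were positive, with a median of 0.12, and without IgG replicate 3 20 were positive, with a median of 0.19, while without Lupron replicate 1 the median was −0.01. Sc4mol, a sterol demethylase gene now named Msmo1, had 94.6, 91.1 and 116 CPM in Lupron tumours and 76.7, 44.9 and 59.8 CPM in IgG tumours. Its groups did not overlap, with 0.73 ± 0.27 and the same value of 0.73 ± 0.30 without that library. Pmvk, a kinase early in the pathway, was at 0.60 ± 0.28, and Scap, the sterol sensor that escorts the pathway's transcription factor, at −1.05 ± 0.44 and −0.22 ± 0.28, with its highest level in IgG replicate 3.

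Apoe had 1625, 1715 and 1610.4 CPM in Lupron tumours and 1430.0, 1269 and 674 CPM in IgG tumours. Each Lupron tumour was above each IgG tumour, but IgG replicate 1 was near, and the fold change was 0.55 ± 0.32, or 0.29 ± 0.28 without IgG replicate 3. Npc2, which moves cholesterol out of lysosomes, had 379.7, 390.0 and 395 CPM in Lupron tumours and 284, 298 and 185 CPM in IgG tumours, without overlap (0.60 ± 0.23). Abca1 had 53.02, 66.2 and 62.1 CPM in Lupron tumours and 80.8, 107 and 181 CPM in IgG tumours, without overlap in the other direction (−1.03 ± 0.28, and −0.64 ± 0.21 without IgG replicate 3). Cd36, a fatty acid and lipoprotein receptor that fat cells also carry (−4.13 ± 1.17 and −2.31 ± 0.94), and Apoc1 (−3.59 ± 1.21 and −1.93 ± 1.05) had most of their counts in IgG replicate 3, with 6.53, 4.59 and 2.64 CPM of Cd36 in Lupron tumours and 6.92, 38.7 and 195 CPM in IgG tumours. The 23 handling genes had a median of −0.04, −0.07 without that library and 0.16 without Lupron replicate 2.

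Most genes of muscle, fat and normal prostate epithelium had negative values, and their levels were highest in IgG replicates 2 and 3. The 14 smooth muscle genes were all negative in both fits, with medians of −2.37 and −0.92, and 10 stood at an unadjusted p under 0.05, then 2 without IgG replicate 3, against 11.7% and 3.16% of all genes. Myh11, smooth muscle myosin, had 50.9, 416 and 199 CPM in Lupron tumours and 153, 1021 and 5981 CPM in IgG tumours (−3.43 ± 1.16 and −1.40 ± 0.92). Synpo2, an actin-bundling protein gene of muscle, had 53.3, 59.8 and 52.8 CPM in Lupron tumours and 57.0, 152 and 735 CPM in IgG tumours (−2.51 ± 0.71, and −0.92 ± 0.36 without IgG replicate 3). IgG replicate 1 lay within the Lupron range for both. Mylk (−3.32 ± 0.94 and −1.58 ± 0.67) and Acta2 (−1.89 ± 0.63 and −0.80 ± 0.45) were alike in this. Skeletal muscle genes were positive in 0 of 11, and in 3 of 11 without IgG replicate 3, with medians of −2.62 and −1.42, with Ttn, titin, at −1.98 ± 0.76, Myh1 at −2.77 ± 0.98 and −1.38 ± 0.84 and Ckm at −4.27 ± 1.61 and −2.21 ± 1.52.

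Fat genes were at 0 of 9 positive in both fits, with medians of −6.20 and −3.42. Lep, the hormone leptin, had 0.101, 0 and 0 CPM in Lupron tumours and 0.304, 1.67 and 10.5 CPM in IgG tumours, and Lipe, a lipase of fat cells, had 2.87, 6.02 and 5.91 CPM in Lupron tumours and 6.54, 15.9 and 51.8 CPM in IgG tumours. Both had no overlap, and IgG replicate 3 held most of the counts, as it did for Cidec (−6.92 ± 2.06 and −4.48 ± 1.77) and Retn (−8.14 ± 2.37 and −5.64 ± 2.11). Luminal genes were at 0 of 17 positive in both fits, with medians of −1.76 and −0.75. Foxa1, a transcription factor of luminal cells, had 55.0, 31.3 and 54.6 CPM in Lupron tumours and 59.8, 86.4 and 392 CPM in IgG tumours (−1.93 ± 0.63, and −0.64 ± 0.37 without IgG replicate 3), without overlap. Krt18, a luminal keratin that tumour cells also make, had 71.2, 108 and 76.4 CPM in Lupron tumours and 80.1, 147 and 658 CPM in IgG tumours (−1.79 ± 0.65 and −0.42 ± 0.37), Hoxb13 was at −1.49 ± 0.52 and −0.75 ± 0.42 and Cdh1 at −2.16 ± 0.78 and −1.01 ± 0.66. Krt18 and the epithelial adhesion gene Cdh1 had counts in all 6 tumours. Basal genes were positive in 1 of 12 in both fits, with medians of −2.38 and −0.75, with Krt15 at 5.14, 3.79 and 4.52 CPM in Lupron tumours and 7.23, 19.5 and 573 CPM in IgG tumours, and Krt5 (−5.66 ± 1.64 and −1.63 ± 0.94), Trp63 (−4.36 ± 1.34 and −1.40 ± 0.86) and Ngfr (−2.37 ± 0.71) lower as well. Prostate secretion genes were positive in 3 of 13, and in 2 of 13 without IgG replicate 3, with medians of −2.04 and −0.87, with Pigr at −3.90 ± 1.32 and −0.94 ± 0.91, Defb50 at −2.78 ± 1.29 and −0.48 ± 1.15 and Crabp1 at −3.25 ± 1.24 and −1.90 ± 1.16.

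Seminal vesicle genes had a positive median, 2.47, and 1.90 without IgG replicate 3, with 10 of 11 positive in both. Svs4, a major protein of seminal fluid, had 115, 58116 and 2429 CPM in Lupron tumours and 1072, 2233 and 29.9 CPM in IgG tumours. The median was −0.74 without Lupron replicate 2, and −1.03 without that tumour and IgG replicate 3, where Svs4 was at −0.38. Spinkl, a protease inhibitor of the gland, was at 3.71 ± 2.42 and turned to −0.49 without Lupron replicate 2. The groups overlapped for each of the 11 genes. Androgen maintains the seminal vesicle, and the share of its genes in total counts was 1.01%, 29.3% and 2.45% in Lupron tumours and 0.957%, 10.5% and 0.0684% in IgG tumours.

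**Figure D5:**
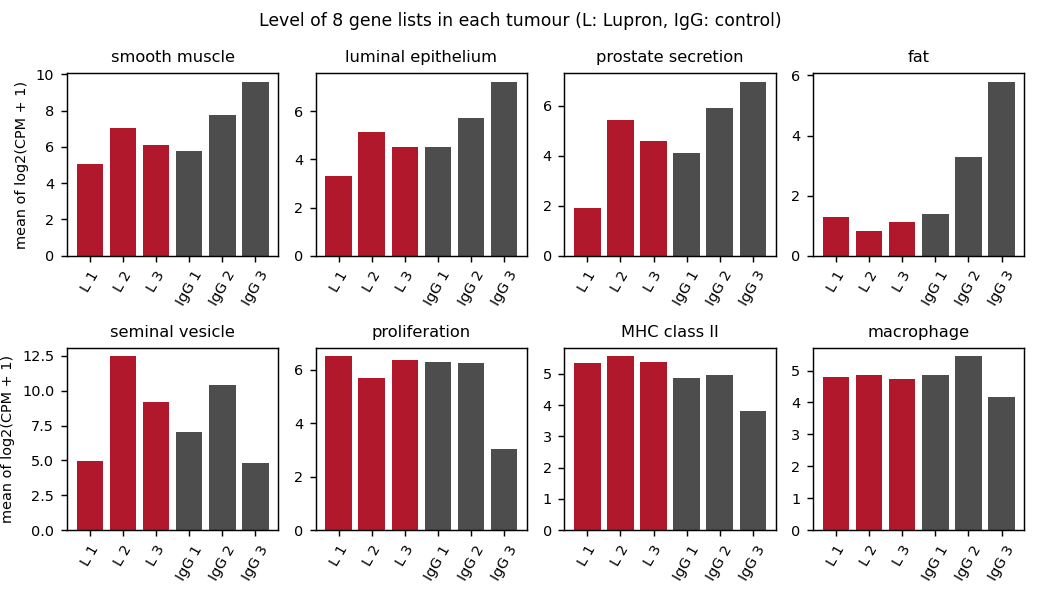
Level of 8 gene lists, as the mean of log2 (CPM + 1) over members (y axis, from 0), in each Lupron tumour (L, red bars) and IgG tumour (grey bars). IgG replicate 3 is highest for smooth muscle at 9.57 and lowest for proliferation at 3.03, and Lupron replicate 2 is highest for seminal vesicle genes at 12.5.

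Fibroblast genes had medians of −0.30 and −0.69 without IgG replicate 3, with 6 lower and 0 higher at an unadjusted p under 0.05 with all libraries, against 11.7% and 4.7% of all genes, and 4 lower and 0 higher without that library, against 3.16% and 2.11%. Lum, a collagen-binding proteoglycan, had 4.67, 7.92 and 2.74 CPM in Lupron tumours and 7.800, 76.2 and 21.3 CPM in IgG tumours (−2.79 ± 0.83, with −1.51 without IgG replicate 2), and Dcn, decorin, was at −1.99 ± 0.62 and −1.21 ± 0.53. Pi16, of a resting fibroblast state, was at −2.74 ± 0.90, or −1.02 ± 0.66 without IgG replicate 3. Matrix remodelling genes had medians of 0.28 and −0.05. Lox, which cross-links collagen, had 11.0, 26.3 and 18.3 CPM in Lupron tumours and 35.2, 133 and 34.7 CPM in IgG tumours, without overlap (−1.87 ± 0.62, with −2.19 ± 0.63 without IgG replicate 3 and −0.92 without IgG replicate 2). Timp1, an inhibitor of matrix proteases, had 232, 214 and 222 CPM in Lupron tumours and 186, 117 and 10.4 CPM in IgG tumours (1.09 ± 0.68), above in each Lupron tumour. Mmp3 was at 2.31 ± 1.10, with 4.67 without IgG replicate 1, 1.77 without IgG replicate 3 and 1.05 without Lupron replicate 1, and Adamts5, which cleaves proteoglycans, was at −1.32 ± 0.42, with −0.87 without IgG replicate 3; both overlapped. Endothelial genes had medians of −0.09 and −0.36 (0.21 without IgG replicate 1 and 0.04 without Lupron replicate 2), and Tek, the angiopoietin receptor, had 7.78, 6.08 and 6.18 CPM in Lupron tumours and 14.2, 10.9 and 16.9 CPM in IgG tumours, without overlap (−1.06 ± 0.29, and −0.91 ± 0.30). Vwf was at −1.35 ± 0.58, and Egfl7 on the other side at 0.80 ± 0.40.

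Proliferation genes were positive in 28 of 30 with all libraries and in 12 of 30 without IgG replicate 3, and the median turned with it, at 0.44 and −0.07. Birc5, survivin, had 87.0, 74.0 and 81.4 CPM in Lupron tumours and 63.2, 67.0 and 2.35 CPM in IgG tumours (0.87 ± 0.75, and 0.31 ± 0.17 without that library). Tyms, of thymidylate synthesis, was at 0.81 ± 0.39 and 0.42 ± 0.22, and Ccnb2, a mitotic cyclin, at 1.06 ± 0.69 and 0.51 ± 0.23. Cdkn1a, the cell cycle inhibitor p21, had 9.30, 13.7 and 13.2 CPM in Lupron tumours and 23.8, 20.1 and 17.0 CPM in IgG tumours, without overlap (−0.75 ± 0.44). Of 17 apoptosis and p53 genes 12 were negative, with medians of −0.20 and −0.22. Zmat3, a p53 target, had 21.8, 20.8 and 23.4 CPM in Lupron tumours and 31.4, 30.1 and 52.9 CPM in IgG tumours (−0.79 ± 0.24, and −0.48 ± 0.19), without overlap, and Sesn2 (−0.47 ± 0.25) and Trp53 itself (−0.57 ± 0.27) had negative values.

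Hypoxia and glycolysis genes had medians of 0.30 and 0.01, with Bnip3 at 1.38 ± 0.86 (0.57 without Lupron replicate 2), Pgam1 at 0.59 ± 0.35 and Stc1 at −0.85 ± 0.29. Immediate early and heat shock genes had medians of −0.23 and −0.33, and 0.13 without IgG replicate 1. Hspb1, a small heat shock protein gene, had 7.37, 23.1 and 13.2 CPM in Lupron tumours and 26.6, 30.9 and 69.0 CPM in IgG tumours, without overlap (−1.54 ± 0.47, and −0.99 ± 0.41), while Fos (−0.55 ± 0.31) and Zfp36 (−0.54 ± 0.24) overlapped. Nerve and neuroendocrine genes had medians of −0.08 and −0.32 (−0.32 also with Calca, which had no counts in IgG replicates 1 and 2, at its counting limit), and 0.12 without IgG replicate 2. Eno2, neuron-specific enolase, had 1.42, 5.28 and 1.84 CPM in Lupron tumours and 1.41, 1.00 and 1.39 CPM in IgG tumours (1.16 ± 0.67, with 0.33 without Lupron replicate 2), and Npy was at 1.48 ± 0.72, with 0.80 without Lupron replicate 1. Of the red blood cell genes only Alas2 was tested (−1.71 ± 1.14 and −1.07 ± 1.20), and the globin genes Hba-a1, Hba-a2, Hbb-bs and Hbb-bt were listed at 0 in every library.

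The second comparison of the drug, Lupron/anti-CSF1 against anti-CSF1, shares no library with the first. No gene passed edgeR's test in it (0% of 15082), with 294 at an unadjusted p under 0.05 (1.95%), 165 higher (1.09%) and 129 lower (0.855%), and DESeq2 called 6. Groups without overlap numbered 717 genes above (4.75%) and 787 below (5.22%). No gene passed edgeR's test of the difference between the 2 comparisons either (0%), with 1021 at an unadjusted p under 0.05 (6.77%), a smallest adjusted p of 0.488 and 209 called by DESeq2. Serpinb6b had 34.6, 43.9 and 32.0 CPM in Lupron/anti-CSF1 tumours and 24.4, 29.9 and 28.3 CPM in anti-CSF1 tumours (0.42 ± 0.25), and Casp1 had 125, 225 and 154 CPM in Lupron/anti-CSF1 tumours and 70.0, 109.8 and 77.6 CPM in anti-CSF1 tumours (0.97 ± 0.53). Bambi (0.64 ± 0.25), Btc (0.60 ± 0.40) and Sc4mol (0.47 ± 0.27) were also positive, and Cav1 (−0.51 ± 0.30) and Itgam (−0.28 ± 0.38) negative, as they were without the antibody. Sfrp1 had the opposite sign, with 31.8, 14.1 and 20.1 CPM in Lupron/anti-CSF1 tumours and 17.3, 9.24 and 5.65 CPM in anti-CSF1 tumours (1.04 ± 0.48), and a difference between the comparisons of 3.40 ± 0.69 (adjusted p = 0.488). Igf1 was at 0.45 ± 0.50 and Fcna at 0.55 ± 0.50 there. Fcna was near the detection limit, at 0.743, 0.853 and 0.654 CPM in Lupron/anti-CSF1 tumours and 0.510, 0.521 and 0.498 CPM in anti-CSF1 tumours. MHC class II genes, positive in 11 of 11 without the antibody, were positive in 4 of 11 with it, with a median of −0.03. H2-Ab1 was at 0.13 ± 0.43, and its difference between the comparisons at −0.94 ± 0.61 (adjusted p = 0.841). Its mean level was 82.6 CPM in Lupron/anti-CSF1 and 75.4 CPM in anti-CSF1 tumours, against 532 CPM in Lupron and 254 CPM in IgG tumours. Androgen response genes had a median of 0.20, smooth muscle genes of 0.45, and T cell genes of −0.07. Fat genes, positive in 0 of 9 without the antibody (median −6.20), were positive in 9 of 9 with it (median 8.33). The fat genes Cidec and Lep had 0 counts in the anti-CSF1 tumours, and no counting limit was applied, so the size of this median is uncertain. The fat level, as the mean of log2 (CPM + 1), was 2.91, 0.72 and 1.64 in Lupron/anti-CSF1 tumours. In anti-CSF1 tumours it was 0.62, 0.75 and 0.59, so Lupron/anti-CSF1 replicate 2 lay among them and replicate 1 was highest. Prostate secretion genes, positive in 3 of 13 without the antibody (median −2.04), were positive in 11 of 13 with it (median 1.10). Their level was 4.14, 3.89 and 4.15 in Lupron/anti-CSF1 tumours and 3.76, 2.07 and 2.02 in anti-CSF1 tumours, where replicate 1 was near the Lupron/anti-CSF1 tumours. The member Msmb had 0 counts in the anti-CSF1 tumours.

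Of the 709 genes higher with Lupron at an unadjusted p under 0.05, 603 (85.0%) were also positive under Lupron/anti-CSF1 against anti-CSF1, where 51.8% of all genes were. Of the 1769 lower genes 778 (44.0%) were also negative, against 48.2% of all genes. Without IgG replicate 3 the shares were 84.4% of 321 and 49.8% of 480. The share of higher genes rests on single libraries: with the other libraries kept, it was 48.6% without Lupron/anti-CSF1 replicate 2 (49.2% of all genes) and 58.1% without IgG replicate 1, and lay between 70.3% and 93.1% without each of the other libraries in turn. The share of lower genes lay between 32.1% without Lupron/anti-CSF1 replicate 2 and 54.6% without Lupron/anti-CSF1 replicate 1. With IgG replicate 3 also left out, the share of higher genes was 52.6% without IgG replicate 1 (52.4% of all genes) and 58.7% without Lupron/anti-CSF1 replicate 2, and lay between 73.3% and 93.4% without each of the others. The share of lower genes then lay between 39.1% without IgG replicate 1 and 84.3% of 197 without IgG replicate 2. With a replicate block, the shares of higher and lower genes were 85.5% and 57.7% with all libraries. Without IgG replicate 3 the block gave 90.2% of 1342 and 78.2% of 1230, against 52.5% and 47.5% of all genes. The block is estimated from libraries of both comparisons, so they are not separate in that fit.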

How the data were processed

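RNA of 12 tumours was sequenced from NuGen Ovation libraries, per the labels' protocols. The authors deposited 1 table of raw read counts per gene symbol. The submitters' processing notes name bcl2fastq 2.20.0.422, cutadapt 1.8.1, HTSeq 0.6.1 and build mm10. They name no aligner, annotation or strand setting, so reads of overlapping, antisense or near-identical genes cannot be told apart. The table holds 23479 symbols, and total counts ran from 20584363 to 29965355 per library.

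From these counts, edgeR 4.0.16 in R 4.3.3 filtered low genes (filterByExpr), scaled libraries by TMM and fitted the 12 libraries with 1 mean per group and a robust quasi-likelihood test, two-sided, adjusted by Benjamini-Hochberg over all genes tested. The sharing of one spread across the 4 groups follows from 3 libraries per group. The same fit was repeated without IgG replicate 3. CPM values use TMM-scaled library sizes, and limits for a count of 0 use 3 counts and cover counting error only. DESeq2 1.42.0, other scalings and filters, a replicate block and leaving out libraries were alternatives. The labels do not say whether replicate numbers pair the samples, and the main fit did not pair them. No 2 libraries agreed within sampling noise.

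The gene lists, 38 lists of 637 symbols (624 found by symbol, 8 by an older name, 5 not used here), and the genes to name were chosen with earlier results of these data known. Genes named were, per fit and direction, the 8 of smallest p with a mean of at least 1 CPM in Lupron or IgG and no overlap, up to 4 members of each list with the smallest p, and 13 fixed genes. Segments of antigen receptors and predicted genes were not named. Some genes that this rule names are not reported here. The scripts were tested on simulated data. Gene positions and promoter sequences come from RefSeq on GRCm38.p6, the assembly that mm10 is built on.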

Additional observations from a re-analysis of the deposited data

How the results depend on the processing

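The call of 0 genes between Lupron and IgG tumours held with other edgeR scalings and filters, with the 6 libraries alone, with the replicate block and without seminal vesicle genes in the scaling. It became 429 with DESeq2 and ranged from 0 to 653 when each library was left out in turn, with 653 without IgG replicate 1. Without IgG replicate 3 the call of 0 became 3 with DESeq2 and ranged from 0 to 34, with 34 when IgG replicate 1 was also left out, which leaves 1 IgG tumour assumed to vary like the others. The antibody comparison gave 6 with DESeq2 and 0 in every leave-one-out fit, and the difference between comparisons gave 209 with DESeq2 and 0 to 5 with each library left out. Genes at an unadjusted p under 0.05 numbered 801 to 4283 over the leave-one-out fits and 1211 with the 6 libraries alone. The replicate block gave 0 called genes, with 3048 at that p with all libraries and 2572 without IgG replicate 3, though the same-numbered tumours' deviations correlated at 0.40, 0.096 and −0.18. Of the genes named, DESeq2 called 48 and the fit without IgG replicate 1 called 43. Log2 fold changes that changed sign ranged over the leave-one-out fits from −1.68 to 0.78 for Ccl2, −0.40 to 0.39 for Csf1, −0.27 to 0.40 for Csf1r, −0.52 to 0.03 for Fkbp5, −0.87 to 1.71 for Pbsn, −0.49 to 6.21 for Spinkl, −2.69 to 0.54 for Srd5a1 and −0.57 to 0.97 for Tspan6. Svs4 stayed positive over these fits, from 0.16 to 5.19, and changed sign only without both IgG replicate 3 and Lupron replicate 2. Without both IgG replicate 3 and Lupron replicate 2 the values were −0.09 for Csf1r, 0.080 for Fkbp5, −1.24 for Pbsn, −1.03 for Spinkl, 0.64 for Srd5a1, −0.38 for Svs4 and 0.77 for Tspan6. The nerve median was 0.54 with the stricter filter and 0.14 with the 6 libraries alone. The cause of each was not tested.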
